A study of Mus musculus with 8 samples.

Results

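Genes of DNA replication and its coupled repair, 44 of the 16130 genes in the deposited count table, were followed in mouse distal colon. They were chosen by name, as genes used in S phase: nucleotide supply, origin licensing, helicase activation, the replication fork, recombination repair and checkpoint, chromatin assembly with maintenance DNA methylation, and the G1/S switch. The choice was made with earlier results of these data known. All 44 were in the table and all 44 passed the filter on low counts. RNA-seq was done on total RNA of distal colon from animals of genotype Tcf4Het/+ ApcMin/+. ApcMin is a truncating allele of the tumour suppressor Apc that gives intestinal tumours, and Tcf4 is a name used for a transcription factor of the Wnt pathway. The 4 libraries EE 1 to EE 4 came from environmentally enriched housing and the 4 libraries NE 1 to NE 4 from conventional, non-enriched housing. The animals were kept in these conditions for 4 months. Both groups carry both alleles, so neither is a wild type. No label states that the libraries are of separate animals. The labels give no batch and do not say whether tumour or flat mucosa was taken. The p-values then measure the spread between these libraries only.

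Before a cell divides it copies its DNA once. In G1 the origin recognition complex, with Cdc6 and Cdt1, loads the Mcm2 to Mcm7 helicase onto origins. Cyclin E with its kinase, and release of E2F transcription factors from the retinoblastoma protein, start S phase. The helicase is then switched on by Cdc45, the GINS complex and Mcm10, polymerases extend the strands with Pcna as their clamp, and breaks at damaged forks are mended by homologous recombination. In the colon, dividing cells sit in the lower crypt, and differentiated surface cells no longer express these genes strongly. In whole tissue RNA, fewer cells of a type and less RNA per cell cannot be told apart.

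Some of the members held an E2F octamer, a promoter feature that their choice did not use. RefSeq promoter windows on build GRCm38.p6, from 250 bases before to 50 bases after each transcription start, were found for 38 of the 44 members and not matched for Mcm4, Gins1, Gins2, Pole, Exo1 and Ccne2. Each window was searched on both strands for an E2F octamer, spelled TTTGGCGC, TTTCCCGC, TTTGCCGC or TTTCGCGC. Of the 38 members, 15 held at least 1 octamer (39.5%), against 704 of all 27025 genes with a window (2.60%). Per window the share was 32.6% of 46 member windows and 2.26% of all 32851 windows. The windows of all genes were not matched to those of the members in base composition or expression. In those 15 members lay 22 octamers, 14 of them starting before the transcription start. The octamers of Mcm5, and a pair of those of Mcm6, overlap each other on opposite strands. A match is a description of letters, and windows without a match say nothing about E2F binding. Some windows lie wholly inside the annotated gene and not at its outermost 5′ end. Among these are the windows of E2f1, Chek1 and Dut, without an octamer, and those with an octamer of Cdc6, Lig1 and Uhrf1. The sites of Mcm6, Mcm7, Pola1, Lig1 and Uhrf1 are shown because these 5 members had both an octamer and EE libraries that all lay above all NE libraries. The octamer is in capitals, and lower case gives 10 flanking bases on each side, read 5′ to 3′ along the gene's own strand.
Mcm6, chr1:128359798-128359825, minus strand: ggcgtatgctTTTGGCGCgaaaagtgcg
Mcm6, chr1:128359794-128359821, minus strand: tatgcttttgGCGCGAAAagtgcgtgcg
Mcm6, chr1:128359735-128359762, minus strand: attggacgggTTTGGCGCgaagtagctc
Mcm7, chr5:138172031-138172058, minus strand: atttcgaaccGCGGGAAAcagggtgtcc
Mcm7, chr5:138171850-138171877, minus strand: ggtgacgacgTTTCGCGCcaatttcggt
Pola1, chrX:93632276-93632303, minus strand: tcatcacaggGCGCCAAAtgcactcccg
Lig1, chr7:13278842-13278869, plus strand: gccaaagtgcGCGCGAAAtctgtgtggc
Uhrf1, chr17:56304118-56304145, plus strand: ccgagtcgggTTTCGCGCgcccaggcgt

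Other promoter words were nearer the background. CCAAT on either strand was in 58.7% of member windows and 37.4% of all windows. The GC box GGGCGG was in 65.2% of member windows and 35.7% of all windows. The CHR element TTTGAA was in 10.9% of member windows and 17.9% of all windows. A pair of whole windows are shown for contrast, Mcm6 with 3 octamers and 2 CCAAT words, and Rrm2, the member with the lowest p in the housing comparison, with 1 CCAAT word, 2 GC boxes and none of the octamers. Capitals mark octamers and CCAAT words. The end of the Mcm6 window was not found at the start of a GENCODE M21 transcript. Nor were the ends of the Mcm5 window and of the Mcm7 window that holds the octamers shown. The other Mcm7 window had its end found and holds no octamer. Lig1 and Uhrf1 likewise have other windows, and those hold no octamer. The end of the Rrm2 window was found, as held for 39 of the 46 member windows.
Mcm6, chr1:128359656-128359955, minus strand: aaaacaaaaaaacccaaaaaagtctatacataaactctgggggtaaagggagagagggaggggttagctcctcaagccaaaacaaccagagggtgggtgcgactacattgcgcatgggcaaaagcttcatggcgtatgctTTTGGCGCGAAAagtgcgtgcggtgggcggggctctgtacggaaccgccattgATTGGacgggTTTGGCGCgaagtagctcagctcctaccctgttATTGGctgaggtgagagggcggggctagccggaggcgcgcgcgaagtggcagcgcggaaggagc
Rrm2, chr12:24708004-24708303, plus strand: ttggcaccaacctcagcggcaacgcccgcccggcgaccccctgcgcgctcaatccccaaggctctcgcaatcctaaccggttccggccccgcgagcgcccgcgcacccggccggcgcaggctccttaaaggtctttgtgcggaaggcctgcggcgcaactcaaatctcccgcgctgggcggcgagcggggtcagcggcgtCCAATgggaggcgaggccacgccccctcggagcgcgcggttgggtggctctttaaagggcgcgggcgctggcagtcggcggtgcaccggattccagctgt

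Counts assigned to genes summed to between 4735764 and 6266902 in the EE libraries and between 6120185 and 10586851 in the NE libraries. Values are CPM, counts scaled to a common library size after TMM correction for differences in library composition. Epithelial markers such as Epcam and Krt8 were high in every library, with 8 of them summing to 7686 to 11260 CPM in EE and 8631 to 11478 CPM in NE. EE 4 stood apart: 10 smooth muscle markers summed to 696.7 CPM there, against 2364 to 4464 CPM in the other EE libraries and 3571 to 5760 CPM in NE, and 7 fibroblast markers summed to 470.1 CPM, against 1207 to 2017 CPM in the other EE libraries and 1479 to 1724 CPM in NE. Results are therefore also given without EE 4. The log2 fold changes in the authors' deposited table have the opposite sign to EE over NE for 97.8% of genes tested and for all 44 members, and its header does not name the numerator. Directions here follow the column names, EE over NE.

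Housing and the members as a group were compared with edgeR's quasi-likelihood test on all 14311 genes that passed the filter. None of the 44 members passed a Benjamini-Hochberg adjusted p of 0.05, and none of the 14311 genes did (0%), with 0.520 the lowest adjusted p. The counts over the members that follow are description only, because the members were chosen with earlier results of these data known. Of the 44 members, 43 had a higher fitted level in EE, against 50.3% of all genes tested. Their median log2 fold change was 0.41, against 0.00 over all genes tested. At an unadjusted p under 0.05, 23 of 44 members were higher in EE and none lower, against 820 of 14311 genes higher (5.73%) and 537 lower. In 12 members every EE library lay above every NE library, and in none was every EE library below. Of all 14311 genes tested, 411 had every EE library above (2.87%) and 289 had every EE library below. In most genes, then, the groups overlapped. Without EE 4, 44 members were higher in EE, the median was 0.35 and 15 had an unadjusted p under 0.05. Without EE 3, 41 were higher, the median was 0.33 and 18 had an unadjusted p under 0.05. Without NE 2, where most members were low, 42 were higher, the median was 0.34 and 13 had an unadjusted p under 0.05. Such a p, in either direction, was found for 6.64% of all genes tested without EE 4. The share was 7.55% without EE 3 and 4.97% without NE 2. DESeq2 called 1 member, Rrm2 (adjusted p = 0.00505), among 14 genes in all (0.0978% of those tested). The authors' deposited table has FDR under 0.05 for 2 members, Rrm2 (log2FC -0.70, FDR 0.00871) and Pole (log2FC -0.58, FDR 0.0123). Such an FDR with a negative log2FC is given there for 173 of 16130 genes (1.07%), and 43 members have a negative log2FC.

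**Figure D1:**
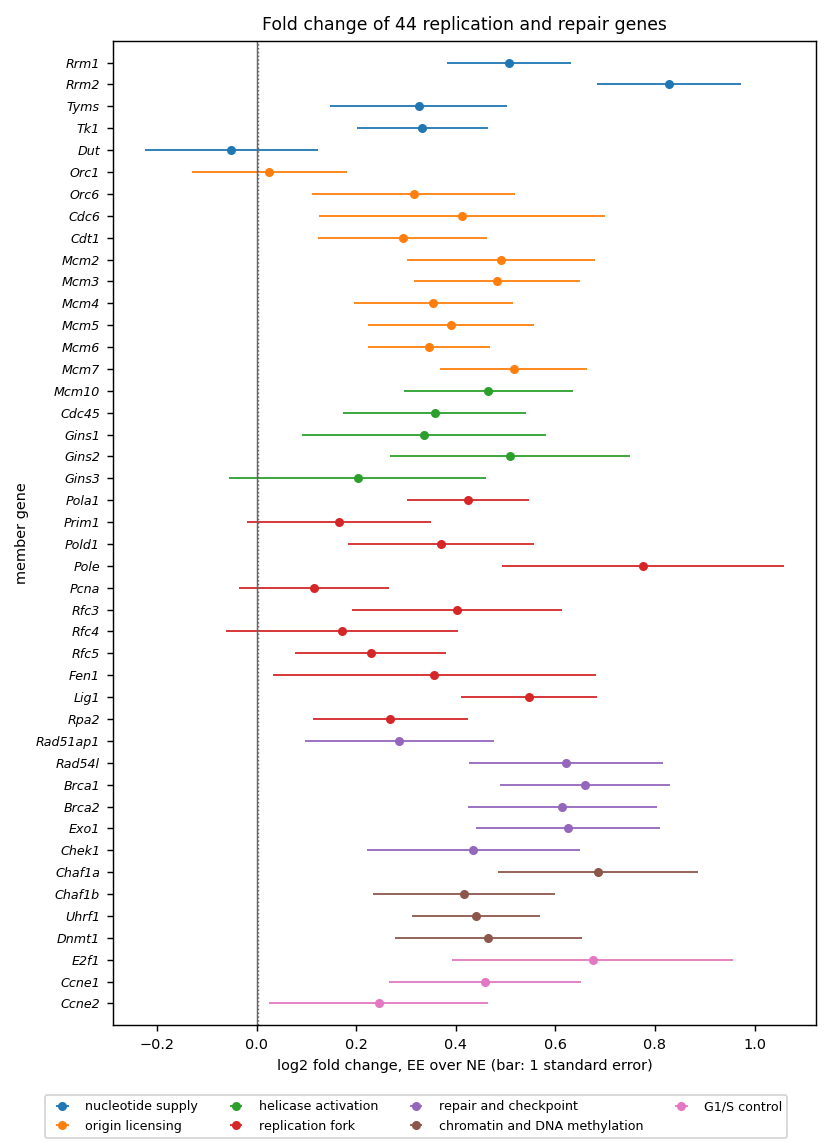
Log2 fold change of each member, EE over NE, with a bar of 1 standard error from edgeR's quasi-likelihood fit, coloured by role; the horizontal axis is log2 and the dotted line is the median of all genes tested. All members but Dut lie to the right of 0, and Rrm2 lies farthest to the right at 0.83.

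Nucleotide supply held the member with the lowest p and the only member lower in EE. Rrm2, the small subunit of ribonucleotide reductase, which makes deoxyribonucleotides (ENSMUSG00000020649, chr12:24708241-24714146), was at 47.1, 45.6, 57.0 and 51.2 CPM in EE 1 to EE 4, against 26.1, 25.9, 26.0 and 35.5 CPM in NE 1 to NE 4. All EE libraries lay above all NE libraries, and NE 4 was the nearest of them. Its log2 fold change was 0.83 (SE 0.14, edgeR unadjusted p = 0.000166, adjusted p = 0.520). Rrm1, the large subunit of the same enzyme (ENSMUSG00000030978, chr7:102441695-102469771), was at 135, 129, 175 and 152 CPM in EE, against 99.2, 102, 102 and 113 CPM in NE, a log2 fold change of 0.51 (SE 0.12, edgeR unadjusted p = 0.00211). Again the groups did not overlap. The subunits did not keep one ratio: Rrm2 over Rrm1, per kilobase of exon, was 0.636, 0.646, 0.592 and 0.615 in EE and 0.479, 0.463, 0.465 and 0.571 in NE, so this ratio too was higher in every EE library. Tk1, the thymidine kinase that salvages thymidine, was at 33.8, 31.0, 32.9 and 42.3 CPM in EE, against 27.8, 28.8, 27.0 and 27.7 CPM in NE (log2 fold change 0.33, SE 0.13, edgeR unadjusted p = 0.0293). The NE libraries lay close together and below all EE libraries, and without EE 4 the log2 fold change was 0.23 (edgeR unadjusted p = 0.0666). Tyms, thymidylate synthase, ranged over 35.2 to 55.8 CPM in EE and 32.7 to 46.4 CPM in NE, with overlap (log2 fold change 0.33, SE 0.18). The annotation holds a Tyms pseudogene, which may share its reads. Dut, which clears dUTP, was at 32.7, 47.3, 44.6 and 31.6 CPM in EE, against 44.1, 36.0, 34.5 and 47.6 CPM in NE. Its groups overlapped throughout, and its log2 fold change of -0.05 (SE 0.17, edgeR unadjusted p = 0.773) turned positive, at 0.05, without EE 4.

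**Figure D2:**
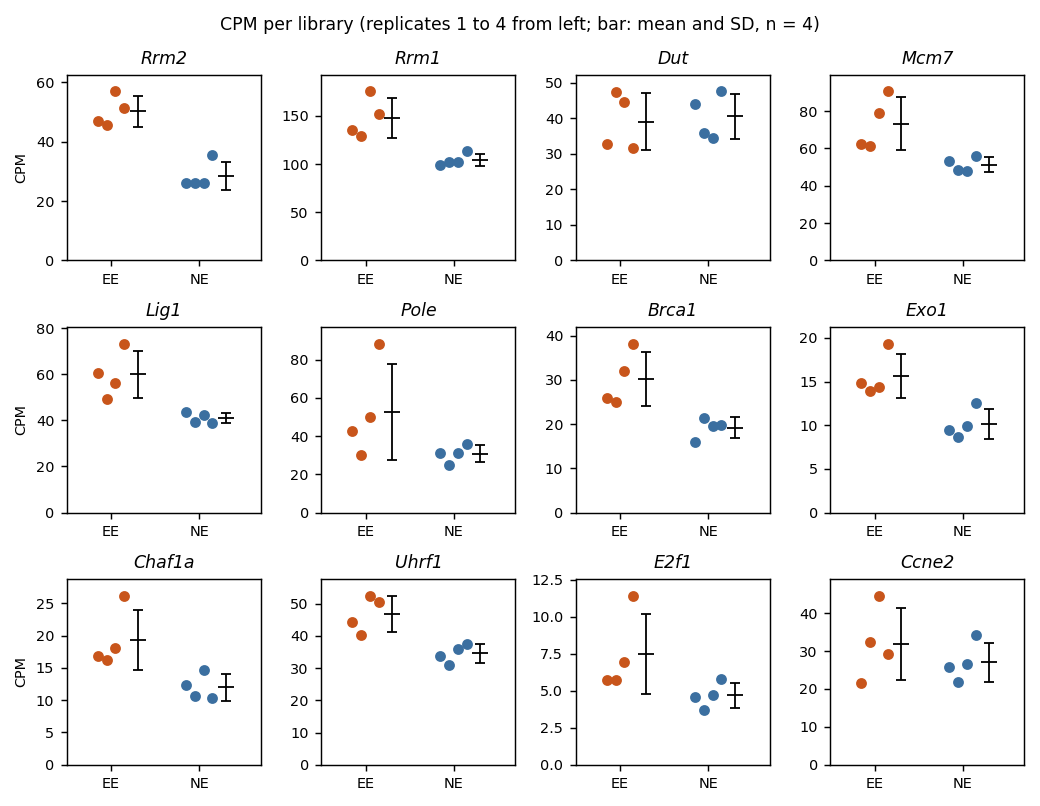
CPM of 12 members in each library, with EE points left of NE points, replicates 1 to 4 from left to right, and a bar for the mean and SD (n = 4 each); each vertical axis starts at 0. Rrm2, Rrm1, Mcm7, Lig1, Brca1, Exo1, Chaf1a and Uhrf1 have no overlap between the groups, while Dut and Ccne2 overlap.

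Origin licensing genes were all higher in EE on average. The groups overlapped in 8 of 10, as they did in most of all genes tested. Mcm7, a subunit of the helicase ring (ENSMUSG00000029730, chr5:138164583-138172422), was at 62.2, 61.2, 79.0 and 90.5 CPM in EE, against 53.1, 48.4, 47.8 and 56.0 CPM in NE (log2 fold change 0.52, SE 0.15, edgeR unadjusted p = 0.00534). Mcm6, another subunit, was at 125, 118, 129 and 144 CPM in EE, against 116, 87.9, 97.6 and 105 CPM in NE (log2 fold change 0.35, SE 0.12, edgeR unadjusted p = 0.0170). These were the ring subunits without overlap, though EE 2 exceeded NE 1 by little in Mcm6. Mcm3 was at 57.8, 62.4, 83.7 and 91.0 CPM in EE, against 59.4, 44.9, 51.8 and 55.4 CPM in NE (log2 fold change 0.48, SE 0.17, edgeR unadjusted p = 0.0152). EE 3 and EE 4 were high here and EE 1 lay below NE 1. Mcm2, Mcm4 and Mcm5 had the same shape, with EE 3 and EE 4 above all NE libraries and EE 1 or EE 2 inside their range; their log2 fold changes were 0.49, 0.36 and 0.39 (SE 0.19, 0.16 and 0.17). Over the 8 libraries all 6 ring subunits were higher in EE at an unadjusted p under 0.05, against 5.73% of all genes tested. The loading factors did not reach such a p, though Cdc6 had a larger log2 fold change than Mcm4, Mcm5 and Mcm6. Cdc6, the ATPase that joins the origin complex to load the ring, ranged over 8.23 to 23.8 CPM in EE and 9.03 to 12.4 CPM in NE, and its log2 fold change of 0.41 (SE 0.29) was 0.10 without EE 4. Cdt1, its partner in loading, ranged over 19.1 to 26.8 CPM in EE and 16.4 to 24.2 CPM in NE (log2 fold change 0.29, SE 0.17). Orc6, a subunit of the origin recognition complex, ranged over 28.0 to 45.8 CPM in EE and 22.9 to 38.8 CPM in NE (log2 fold change 0.32, SE 0.20). Orc1, the subunit of that complex that binds it to chromatin, was at 15.9, 13.6, 18.6 and 15.2 CPM in EE, against 15.6, 13.9, 15.1 and 17.7 CPM in NE. Its groups overlapped fully, with a log2 fold change of 0.03 (SE 0.16, edgeR unadjusted p = 0.874) that was negative without EE 3 and without NE 2, at -0.05 and -0.02. Orc1 holds an E2F octamer in its promoter window, as Cdc6, Cdt1, Mcm3, Mcm5, Mcm6 and Mcm7 do. Over all roles, the median log2 fold change was 0.41 for the 15 members with an octamer and 0.36 for the 23 without.

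Helicase activation genes overlapped between the groups in all 5 cases, as most of all genes tested did. Mcm10, which helps open the loaded helicase, was at 24.8, 20.1, 27.2 and 31.1 CPM in EE, against 17.8, 18.5, 16.3 and 22.4 CPM in NE (log2 fold change 0.47, SE 0.17, edgeR unadjusted p = 0.0199). EE 2 was the only EE library below an NE library, NE 4. Cdc45, the helicase cofactor, was at 13.2, 15.3, 17.4 and 16.0 CPM in EE, against 11.7, 11.3, 9.85 and 15.7 CPM in NE (log2 fold change 0.36, SE 0.18, edgeR unadjusted p = 0.0794). NE 4 lay inside the EE range. Gins2, a GINS subunit, was at 17.2, 21.2, 32.5 and 16.0 CPM in EE, against 12.8, 14.6, 14.3 and 19.7 CPM in NE (log2 fold change 0.51, SE 0.24, edgeR unadjusted p = 0.0601). EE 3 was far above the rest, and without it the log2 fold change was 0.25 (edgeR unadjusted p = 0.225). Antisense exons of Gse1 cover 67.3% of the Gins2 exons. Gins3, another GINS subunit, was at 6.16, 6.32, 5.59 and 7.13 CPM in EE, against 5.05, 4.16, 4.69 and 8.12 CPM in NE (log2 fold change 0.20, SE 0.26, edgeR unadjusted p = 0.450). Its highest library was NE 4, without which the log2 fold change was 0.44, and without NE 2 it was 0.093. Gins1 ranged over 9.38 to 13.9 CPM in EE and 6.95 to 13.1 CPM in NE (log2 fold change 0.34, SE 0.24), again with NE 4 as the library of overlap.

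At the fork, 2 of 11 genes, Lig1 and Pola1, had every EE library above every NE library, against 2.87% of all genes tested. Lig1, the ligase that joins Okazaki fragments (ENSMUSG00000056394, chr7:13277283-13311433), was at 60.7, 49.2, 56.4 and 73.2 CPM in EE, against 43.4, 39.4, 42.3 and 38.8 CPM in NE (log2 fold change 0.55, SE 0.14, edgeR unadjusted p = 0.00229). Pola1, the catalytic subunit of the primer-making polymerase alpha, was at 48.2, 42.9, 47.9 and 56.1 CPM in EE, against 39.9, 36.8, 35.2 and 33.5 CPM in NE (log2 fold change 0.42, SE 0.12, edgeR unadjusted p = 0.00594). In both genes all EE libraries exceeded all NE libraries. Pole, the catalytic subunit of the leading-strand polymerase epsilon, was at 42.5, 30.2, 49.9 and 88.5 CPM in EE, against 30.9, 25.1, 31.4 and 36.1 CPM in NE (log2 fold change 0.78, SE 0.28, edgeR unadjusted p = 0.0203). EE 4 was far above all other libraries and EE 2 lay within the NE range; without EE 4 the log2 fold change was 0.42 (edgeR unadjusted p = 0.0553). Rfc4, a subunit of the loader that opens the Pcna clamp, was at 13.8, 16.3, 26.3 and 15.9 CPM in EE, against 17.5, 12.0, 15.1 and 19.9 CPM in NE (log2 fold change 0.17, SE 0.23, edgeR unadjusted p = 0.479). Only EE 3 lay above the NE range, and without it the log2 fold change was -0.06. The other 7 fork genes all overlapped between the groups and none had an unadjusted p under 0.05. Pcna, the clamp itself, had a mean of 75.2 ± 9.76 CPM in EE and 69.6 ± 12.5 CPM in NE (SD, n = 4 each). Its log2 fold change was 0.12 (SE 0.15), with reads that its annotated pseudogenes may share. Prim1, the primase subunit, was at 0.17 (SE 0.18) on the same log2 scale, and Pold1, the catalytic subunit of polymerase delta, at 0.37 (SE 0.19). The clamp loader subunits Rfc3 and Rfc5 had log2 fold changes of 0.40 and 0.23 (SE 0.21 and 0.15), and Rpa2, a subunit of the single-strand binding protein, 0.27 (SE 0.16). Fen1, the flap nuclease, had few counts (2.30 to 3.93 CPM in EE and 1.60 to 3.31 CPM in NE; log2 fold change 0.36, SE 0.32), and antisense exons of Gm10143 cover 78.8% of its exons.

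Repair and checkpoint genes had the highest median log2 fold change of the 7 roles, 0.62. Brca1, which guides homologous recombination (ENSMUSG00000017146, chr11:101488764-101551955), was at 25.9, 25.1, 32.0 and 38.2 CPM in EE, against 15.9, 21.4, 19.6 and 19.9 CPM in NE (log2 fold change 0.66, SE 0.17, edgeR unadjusted p = 0.00296). Exo1, the nuclease that resects DNA ends and acts in mismatch repair, was at 14.9, 14.0, 14.4 and 19.3 CPM in EE, against 9.47, 8.60, 9.95 and 12.6 CPM in NE (log2 fold change 0.63, SE 0.18, edgeR unadjusted p = 0.00649). Neither gene's groups overlapped, and EE 4 was highest in both. Brca2, which acts in homologous recombination, was at 26.3, 18.4, 23.1 and 33.0 CPM in EE, against 14.8, 16.6, 19.1 and 15.1 CPM in NE (log2 fold change 0.61, SE 0.19, edgeR unadjusted p = 0.00866). Only EE 2 and NE 3 crossed. Rad54l, a motor that assists strand exchange, ranged over 14.0 to 23.0 CPM in EE and 10.8 to 12.9 CPM in NE without overlap (log2 fold change 0.62, SE 0.20). Rad51ap1, which also acts in homologous recombination, was at 13.6, 12.4, 17.2 and 13.3 CPM in EE, against 10.3, 10.5, 10.6 and 15.2 CPM in NE (log2 fold change 0.29, SE 0.19, edgeR unadjusted p = 0.162). NE 4 stood above the other NE libraries and above all EE libraries but EE 3; without NE 4 the log2 fold change was 0.44 (edgeR unadjusted p = 0.0370). Chek1, the checkpoint kinase that answers stalled forks, ranged over 13.2 to 21.5 CPM in EE and 9.75 to 15.4 CPM in NE (log2 fold change 0.44, SE 0.21, edgeR unadjusted p = 0.0675).

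All 4 genes of chromatin assembly and maintenance methylation were higher in EE at an unadjusted p under 0.05 over the 8 libraries. Of all genes tested, 5.73% were. Without EE 4, 2 of the 4 genes, Uhrf1 and Chaf1a, had such a p, against 6.64% of all genes tested in either direction. None of the 4 passed the adjusted threshold. Uhrf1, which reads hemimethylated DNA behind the fork (ENSMUSG00000001228, chr17:56303321-56323486), was at 44.2, 40.2, 52.4 and 50.6 CPM in EE, against 33.8, 31.0, 36.0 and 37.5 CPM in NE (log2 fold change 0.44, SE 0.13, edgeR unadjusted p = 0.00620). Chaf1a, the large subunit of the histone-depositing factor CAF-1, was at 16.8, 16.3, 18.1 and 26.2 CPM in EE, against 12.3, 10.6, 14.7 and 10.3 CPM in NE (log2 fold change 0.69, SE 0.20, edgeR unadjusted p = 0.00622). Both had EE wholly above NE, though antisense exons of Ubxn6 cover 52.5% of the Chaf1a exons. Dnmt1, the methyltransferase that Uhrf1 recruits, was at 100.2, 92.3, 120.1 and 174 CPM in EE, against 91.6, 86.9, 92.9 and 81.5 CPM in NE (log2 fold change 0.47, SE 0.19, edgeR unadjusted p = 0.0313). Chaf1b, the middle CAF-1 subunit, was at 31.0, 22.8, 33.5 and 36.0 CPM in EE, against 28.4, 18.5, 21.9 and 23.9 CPM in NE (log2 fold change 0.42, SE 0.18, edgeR unadjusted p = 0.0446). In both, EE 2 lay within the NE range, and EE 4 was highest. Without EE 4 the log2 fold change was 0.25 for Dnmt1 (edgeR unadjusted p = 0.0757) and 0.34 for Chaf1b (edgeR unadjusted p = 0.106).

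The G1/S switch genes overlapped in all 3 cases, as most of all genes tested did. E2f1, the transcription factor that drives S-phase genes, was at 5.73, 5.74, 6.95 and 11.4 CPM in EE, against 4.58, 3.73, 4.69 and 5.80 CPM in NE (log2 fold change 0.68, SE 0.28, edgeR unadjusted p = 0.0371). EE 4 was highest and NE 4 lay just above EE 1 and EE 2; without EE 4 the log2 fold change was 0.40 (edgeR unadjusted p = 0.116). Ccne1, cyclin E1, was at 15.3, 17.4, 21.9 and 19.5 CPM in EE, against 12.6, 12.2, 11.3 and 18.2 CPM in NE (log2 fold change 0.46, SE 0.19, edgeR unadjusted p = 0.0385). NE 4 alone reached the EE range, and without EE 4 the unadjusted p was 0.0617 in edgeR. Ccne2, cyclin E2, was at 21.7, 32.3, 44.6 and 29.2 CPM in EE, against 25.7, 21.9, 26.5 and 34.1 CPM in NE (log2 fold change 0.24, SE 0.22, edgeR unadjusted p = 0.290). EE 1 was the lowest of all libraries for it and EE 3 the highest, and the log2 fold change was 0.049 without EE 3.

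**Figure D3:**
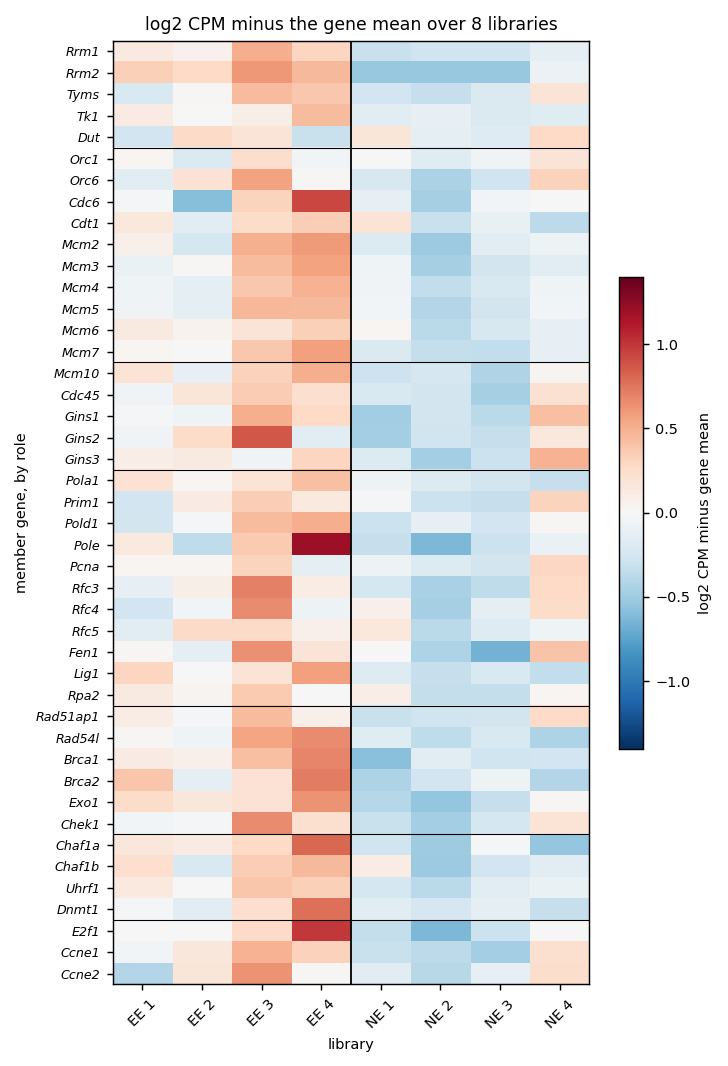
Log2 CPM minus each gene's mean over the 8 libraries, with members in rows by role and libraries in columns, EE left of NE; red is above and blue below the gene's mean. The columns EE 3 and EE 4 are mostly red, NE 1 to NE 3 mostly blue, and NE 4 is mixed.

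The libraries of 1 housing group were not alike. EE 3 was the highest of all 8 libraries for 20 members and EE 4 for 21; EE 2 was highest for 1 and NE 4 for 2. The lowest library was NE 2 for 18 members. Relative to each gene's mean, the median member stood at 0.02, 0.01, 0.37 and 0.36 on the log2 scale in EE 1 to EE 4, and at -0.19, -0.35, -0.25 and 0.00 in NE 1 to NE 4. NE 4 thus reached the level of EE 1 and EE 2. EE 1, EE 2, EE 3 and EE 4 exceeded every NE library for 19, 15, 42 and 29 members, against 25.6%, 18.2%, 29.1% and 34.5% of all genes tested. Within a group, the between-library SD of log2 CPM had a median over members of 0.28 in EE and 0.22 in NE, against 0.31 in EE and 0.20 in NE over all genes tested, and 29 members spread more widely in EE.

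EE 3 and EE 4, alike in their median, differed in which members were high. EE 4 exceeded EE 3 for 22 members and EE 3 exceeded EE 4 for the other 22. Gins2 and Rfc4 were lower in EE 4, at -1.02 and -0.73 (log2, EE 4 over EE 3), and Pole and E2f1 were higher, at 0.83 and 0.71. The 22 members higher in EE 4 had a median longest coding transcript of 3522 bases, against 2213 bases for the 22 higher in EE 3. Across the 44 members, this difference went with log2 transcript length with Pearson's r = 0.578 and Spearman's rho = 0.580, against r = 0.256 and rho = 0.352 across 13327 genes. The EE over NE log2 fold change also went with length across members (r = 0.548, rho = 0.595), against r = 0.101 and rho = 0.131 across the same 13327 genes. These are correlations across genes, which share the 8 libraries and are not independent replicates. The part of transcript length in the member differences was not tested.

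**Figure D4:**
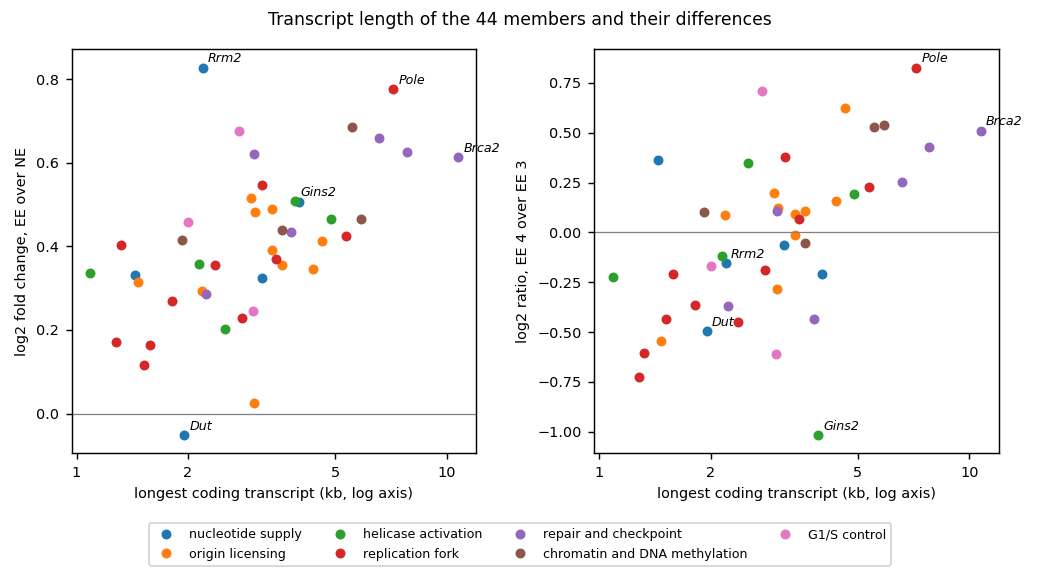
Longest coding transcript of each member in kilobases (log axis) against its log2 fold change, EE over NE, on the left, and against the log2 ratio of EE 4 over EE 3 on the right; points are members, coloured by role. Long genes such as Pole and Brca2 lie high in both panels, and Rrm2, a short transcript, lies high on the left alone.

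Levels between members are compared per kilobase of exon, with exon lengths from the basic transcript set of GENCODE M21. The order rests on that choice. Over all annotated transcripts the exons of Rfc3 cover 3611 bases, against 1317 bases in the basic set, and those of Rrm1 11012 bases, against 3997. Pcna was the highest, at 49.5 ± 6.43 CPM per kilobase in EE and 45.8 ± 8.27 in NE (SD, n = 4 each), followed by Rfc3 at 40.7 ± 10.9 in EE and 30.9 ± 7.51 in NE, ranges that overlap those of Pcna. Rrm1 came next at 37.0 ± 5.23 in EE and 26.0 ± 1.56 in NE. The 6 ring subunits lay near each other, with means of 22.0 to 29.5 CPM per kilobase in EE and 17.2 to 23.3 in NE. At the low end stood Fen1 (1.20 in EE and 0.960 in NE), Exo1 (2.01 in EE and 1.30 in NE), Gins3 (2.33 in EE and 2.03 in NE), Brca2 (2.35 in EE and 1.53 in NE) and E2f1 (2.37 in EE and 1.49 in NE).

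Other genes of the pathway, 110 in lists that do not hold the members, were also mostly higher in EE. These lists, and the mitosis list below, were also chosen with earlier results known, so their counts are description only. None passed the adjusted threshold, 101 had a higher fitted level in EE, 30 were higher at an unadjusted p under 0.05 and none lower, and the median log2 fold change was 0.24, against 0.41 for the 44 members. Of all genes tested, 50.3% were higher in EE and 5.73% were higher at such a p. Those shares also stand beside the list counts that follow. Among 36 further replication genes, 34 were higher, led by Ticrr (0.87, SE 0.23), which fires origins, Clspn (0.76, SE 0.20), a fork checkpoint mediator, and Esco2 (0.43, SE 0.14), which acetylates cohesin; Orc3 (-0.14, SE 0.14) and Gins4 (-0.06, SE 0.17) were lower. All 28 further repair genes were higher, among them Rad18 (0.58, SE 0.14), a ubiquitin ligase of damage tolerance, and Bard1 (0.74, SE 0.19), the partner of Brca1. All 8 further chromatin assembly genes were higher, led by Hells (0.65, SE 0.15), a remodeller that supports DNA methylation, Ezh2 (0.59, SE 0.18), a histone methyltransferase, and Nasp (0.40, SE 0.12), a histone chaperone. Of 19 further G1/S genes 16 were higher, including E2f8 (0.64, SE 0.19) and E2f7 (1.15, SE 0.39), repressors of the E2F family, and Ccna2 (0.31, SE 0.11), cyclin A2; the 3 lower genes were Cdkn1a (-0.25, SE 0.21), Cdkn1b (-0.17, SE 0.15) and Rb1 (-0.11, SE 0.15). Of 19 nucleotide synthesis genes 15 were higher, led by the mitochondrial folate enzymes Mthfd1l (0.56, SE 0.18) and Shmt2 (0.48, SE 0.19) and by Cad (0.51, SE 0.21), the first enzyme of pyrimidine synthesis; Samhd1, Rrm2b, Shmt1 and Tk2 were lower. Outside these 110, all 21 mitosis genes were higher, with a median of 0.36 and 10 at an unadjusted p under 0.05, among them Aurkb (0.43, SE 0.13), a chromosome segregation kinase, Bub1 (0.52, SE 0.17), a spindle checkpoint kinase, and Top2a (0.44, SE 0.16), the topoisomerase of chromosome condensation. The ratio of summed member CPM to summed mitosis CPM was 1.16, 1.13, 1.25 and 1.03 in EE and 1.15, 0.948, 0.973 and 1.34 in NE, which overlap. Among 12 p53 target genes, 6 were higher and 6 lower, with a median of -0.02.

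Markers of several cell types differed between the same libraries. All 8 crypt stem and progenitor markers had a higher fitted level in EE, summing to 624 to 1504 CPM in EE and 598 to 770.1 CPM in NE, with EE 3 and EE 4 the highest of all 8. All 7 colonocyte markers, genes of differentiated absorptive cells, had a lower fitted level in EE, summing to 2226 to 7040 CPM in EE and 4713 to 9163 CPM in NE; EE 3 and EE 4 were the lowest of all. All 8 goblet markers and all 10 smooth muscle markers also had lower fitted levels in EE, as did all 6 T cell markers and all 7 fibroblast markers tested. The fibroblast markers, however, summed to 1207, 1873, 2017 and 470.1 CPM in EE 1 to EE 4, against 1479 to 1724 CPM in NE. For them EE 2 and EE 3 lay above every NE library, and EE 4 was far below. All 5 erythroid markers tested were lower in EE at an unadjusted p under 0.05, against 537 of all 14311 genes tested. Their median log2 fold change was -0.96. In 4 of them every EE library lay below every NE library, against 289 of the 14311 genes. The erythroid markers summed to 499.8 to 590.3 CPM in EE and 725 to 1229 CPM in NE. Relative to summed epithelial markers, the members summed to 0.145, 0.161, 0.271 and 0.244 in EE and to 0.125, 0.132, 0.137 and 0.181 in NE, so EE 1 and EE 2 lay below NE 4. Scaled to the epithelial markers in place of TMM, all 44 members were higher in EE with a median log2 fold change of 0.51, 17 of them at an unadjusted p under 0.05, while the median of all genes moved to 0.08. Under that scaling 61.1% of all genes tested were higher in EE, and 6.90% had such a p in either direction. Of 7 markers of germinal centre B cells, another dividing cell, 5 were tested and summed to 38.0 to 56.1 CPM in EE and 41.4 to 54.7 CPM in NE. The 6 B cell markers tested summed to 6.50 to 42.1 CPM in EE, lowest in EE 4, and to 23.8 to 49.7 CPM in NE. The part of these cell types in the member differences was not tested.

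**Figure D5:**
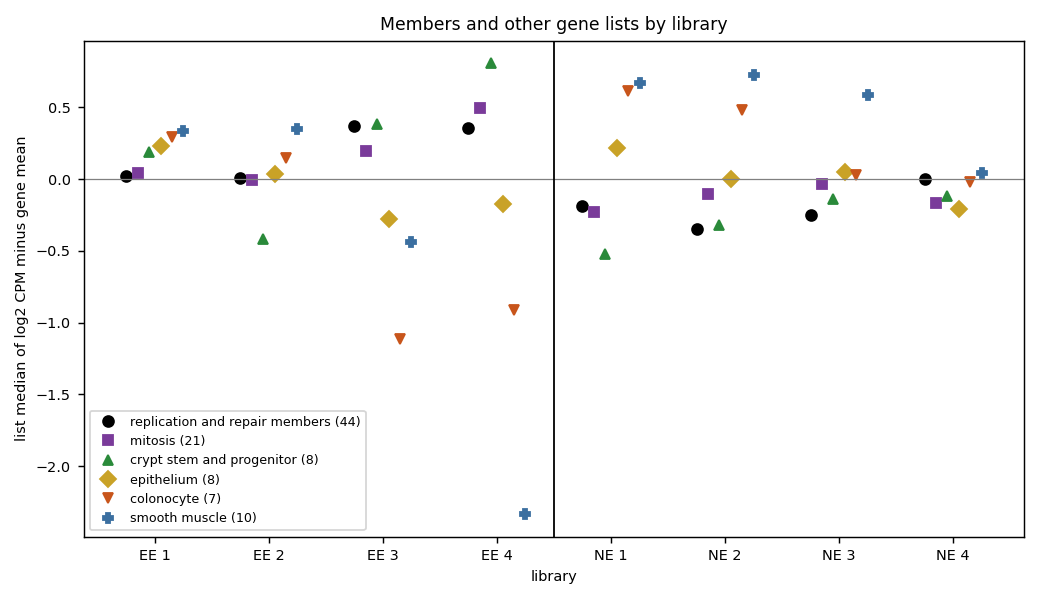
Median of log2 CPM minus the gene mean for the 44 members and 5 other gene lists in each library, EE left of NE; each symbol is 1 list, with its number of genes in the legend. Members, mitosis genes and crypt markers are high in EE 3 and EE 4, where colonocyte and smooth muscle markers are low.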

How the data were processed

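Total RNA of 8 distal colon libraries was depleted of ribosomal RNA, made into stranded libraries and read as 50-base single ends, per the labels' protocols. The submitters' processing notes name Novoalign 2.08.01, DESeq 1.14.0 and build mm10. The sources used here do not give the annotation, the counting program or any use of strand. A member and an antisense gene may share reads; 15 members overlap exons of another gene, 8 over more than 10% of their exons. The authors deposited whole-number counts for 16130 genes, the smallest row total being 12. The deposited table also holds the authors' log2 fold change and FDR, an adjusted p-value, per the file headers.

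Counts were filtered (filterByExpr), TMM-scaled and tested with edgeR 4.0.16 in R 4.3.3 by the robust quasi-likelihood test over all 14311 genes left, with Benjamini-Hochberg adjustment; the common biological coefficient of variation was 0.219. The code was tested on simulated data. Alternatives used limma 3.58.1, DESeq2 1.42.0, other scalings and filters, a replicate block and each library left out. Gene lengths are from GENCODE M21 and promoter windows from RefSeq. Log2 CPM used a prior count of 2 for list medians. The members and lists were chosen with earlier results of these data known. Per-library values are given for the up to 3 members with the lowest p and the 1 with the highest p in each role, 27 in all; other pathway lists name up to 3 genes by p, and their lower genes and a few markers after values were seen. A gene that this rule would name is not reported here. Library totals of 4735764 to 10586851 counts limit the precision of low genes such as Fen1.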

Additional observations from a re-analysis of the deposited data

Results flagged for a closer look

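In 88 groups of 4 libraries (44 members in each housing group), 3 had a library whose gap to its nearest neighbour, as a share of the group's range, passed Dixon's 95% critical value. Chance gives about 1 in 20 such groups. Rrm2 in NE had a gap share of 0.989, with NE 4 at 35.5 CPM and the other NE libraries at 25.9 to 26.1 CPM. Rad51ap1 in NE had 0.931, with NE 4 at 15.2 CPM and the others at 10.3 to 10.6 CPM. Exo1 in EE had 0.834, with EE 4 at 19.3 CPM and the others at 14.0 to 14.9 CPM.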

How the results depend on the processing

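Across all alternative fits 41 to 44 of the 44 members were higher in EE, and their median log2 fold change was 0.33 to 0.51. No member was called by edgeR or limma under any of them at an adjusted p of 0.05. At 0.1 none was called with all libraries in edgeR, but without EE 2 Rrm2 (adjusted p = 0.0781) and Lig1 (adjusted p = 0.0969) had an adjusted p under it. DESeq2 called 1 member, Rrm2, and 14 genes at 0.05. At 0.1 Rrm1 also had an adjusted p under the threshold in DESeq2 (adjusted p = 0.0845). Leaving out 1 library at a time gave 0 to 1 called genes in all, the 1 being without EE 2, and 13 to 27 members at an unadjusted p under 0.05, lowest without NE 2 (13) and without EE 4 (15). The log2 fold change of Dut was 0.032 with epithelial scaling, 0.024 without EE 1, 0.048 without EE 4 and 0.034 without NE 4, and -0.15 to 0.048 over all left-out libraries. That of Orc1 was -0.053 without EE 3 and -0.023 without NE 2, with a range of -0.053 to 0.091. Rfc4 was at -0.062 without EE 3, with a range of -0.062 to 0.28. The cause was not tested. Same-numbered EE and NE libraries had correlations of their deviations of 0.25, 0.01, -0.18 and -0.04, and only number 1 correlated best with its own number. Such correlations cannot decide whether the design paired the libraries, and the labels do not say. With the replicate block 0 members were called, 43 were higher and the median was 0.38. An unadjusted p under 0.05 was then found for 20 members, against 9.82% of all genes tested. Low counts limit Fen1, Gins3 and E2f1.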
